A study of Triticum aestivum with 24 samples.

Results

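The difference between the wheat cultivars TAM 112 and TAM 111 in their response to the dry treatment was examined in flag leaves, over all 24 of the 24 arrays in the series. For each probe set it was taken as the dry minus wet change in TAM 112 minus the same change in TAM 111, averaged over grain filling and heading, so that 6 arrays stood in each cultivar and water cell. A positive value means that the signal went up more, or down less, in dry leaves of TAM 112 than in dry leaves of TAM 111. The 8 groups, with 3 arrays each, were TAM 112 and TAM 111 plants, each under the dry and the wet treatment, each sampled at grain filling and at heading. All plants were grown in a greenhouse. The labels give the water levels as 50% and 90% of field capacity without tying either to the words dry and wet. They do not say whether the 3 replicates of a group came from separate plants, so each p-value rests on the spread among the samples as given, and that spread may be technical.

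The flag leaf is the last leaf below the ear and supplies much of the sugar that fills the grain. When water runs short, wheat leaves accumulate late embryogenesis abundant proteins and dehydrins, which protect other proteins and membranes in drying cells, and lower the expression of many genes for photosynthesis and growth. A cultivar by water interaction asks whether lines differ in the size or direction of that response, which is a different question from whether they differ at one water level. Bread wheat is hexaploid, and a probe set of the Affymetrix wheat array can read more than 1 copy of a gene.

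Few probe sets passed the test of this difference. Of 37516 tested probe sets, 23 were called (limma, Benjamini-Hochberg adjusted p below 0.05), which is 0.0613% of those tested. Of these, 16 had a positive difference (0.0426%) and 7 a negative one (0.0187%). After quantile normalization of the arrays 24 were called, 20 positive and 4 negative, and 20 of the 23 were among them. At an unadjusted p below 0.05 there were 4413 probe sets (11.8%). Over all tested probe sets the difference had a median of -0.05 on the log2 scale, with quartiles at -0.26 and 0.17, and a median standard error (SE) of 0.25. Values on the log2 scale were computed as log2(signal + 11.7), so they understate the change of dim probe sets. The 23 differences ran from 1.48-fold to 9.12-fold, and 18 were at least 2-fold.

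The changes behind this difference were common in both cultivars. Dry leaves differed from wet leaves, over both stages, at 9488 probe sets in TAM 112 (25.3% of those tested) and at 6962 in TAM 111 (18.6%). Both cultivars were called in the same direction at 4756 of them, which is 50.1% of the TAM 112 calls and 68.3% of the TAM 111 calls, and in opposite directions at 10. A further 4722 probe sets were called in TAM 112 alone. Of these, 7 had a called difference between cultivars, beside 0.0613% of all tested probe sets. At an unadjusted p below 0.05 (limma) it was 1785 of them, beside 11.8% of all tested, a count that choosing them by the same arrays favours. A call in 1 cultivar and none in the other thus did not by itself show a different response. The same held for TAM 111, where 5 of the 2196 probe sets called in it alone had a called difference and 735 an unadjusted p below 0.05. The difference had a larger median SE (0.25) than the change in 1 cultivar (0.18), so it was harder to call. Across all tested probe sets the dry minus wet changes of TAM 112 and TAM 111 correlated with r = 0.71 (37516 probe sets, which are not independent and come from the same arrays).

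**Figure D1:**
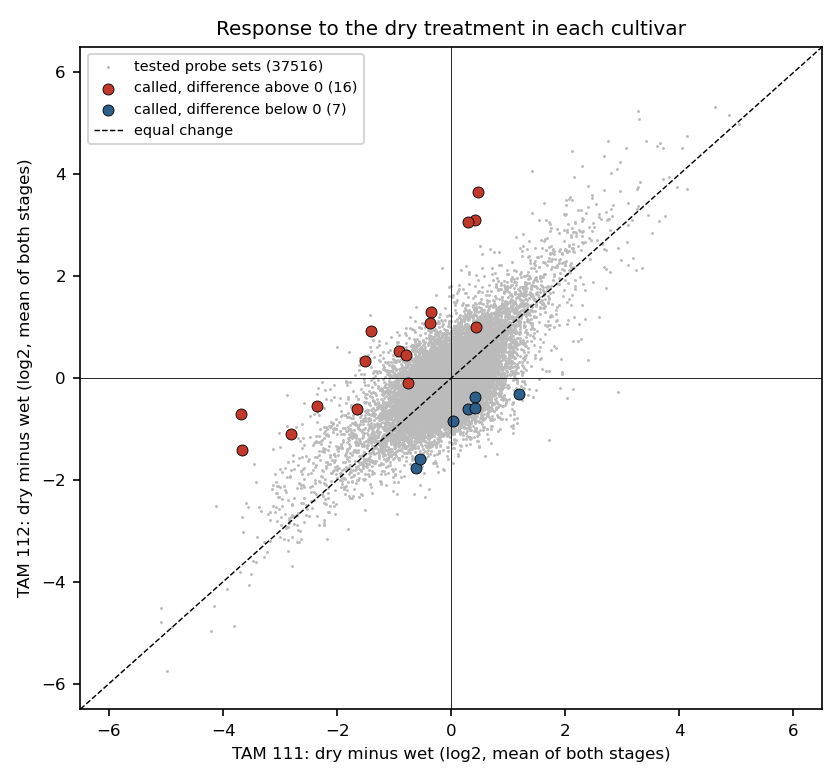
Each point is a tested probe set, with its dry minus wet change in TAM 112 (vertical axis, log2, mean of both stages) against that in TAM 111 (horizontal axis, log2, mean of both stages). The 16 called probe sets with a positive difference lie above the dashed line of equal change and the 7 with a negative one below it, while most tested probe sets follow the line.

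Water-responsive probe sets changed somewhat further in TAM 112 as a whole. The mean change over both cultivars was called at 12097 probe sets (32.2%), 5702 of them higher (15.2%) and 6395 lower (17%) in dry leaves. Among the higher ones the median change was 0.46 in TAM 112 and 0.41 in TAM 111, and among the lower ones it was -0.53 in TAM 112 and -0.42 in TAM 111 (log2). The change was larger in TAM 112 at 61.9% of the higher and 61.5% of the lower probe sets. At grain filling the medians of the higher ones were 0.67 in TAM 112 and 0.57 in TAM 111, and at heading 0.25 in TAM 112 and 0.23 in TAM 111. For the lower ones they were -0.77 in TAM 112 and -0.58 in TAM 111 at grain filling, and -0.31 in TAM 112 and -0.27 in TAM 111 at heading. These medians are descriptions with no test, since the probe sets were chosen by the water effect of the same arrays.

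The count of calls depended heavily on single arrays. Without the third dry array of TAM 112 at grain filling, 907 probe sets were called (2.42%), 299 with a positive (0.797%) and 608 with a negative difference (1.62%), and all 23 were among them. In 743 of the 907 the change was larger in TAM 112, a count that leaving out a weakly responding dry TAM 112 array itself favours. That array had the lowest of the 24 weights limma estimates for array quality (0.395). On the first principal component, which held 27.5% of the variance, it lay at 93.9, while the first and second dry arrays of TAM 112 at grain filling lay at 140 and 130. Its change from the wet mean followed that of the other dry arrays with a slope of 0.675, against 0.998 and 0.940 for the first and second array. The third dry TAM 111 array at grain filling also lay lower than the first and second, at 53.4 beside 81.0 and 73.3. Its slope was 0.791 beside 0.880 and 0.891. Slopes of the dry arrays at heading ran from 0.547 to 0.809.

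Leaving out any other single array gave 3 to 28 calls. The count fell by more than 1.5 times for 12 of them, all of which had 3 to 15 calls left. It was 3 without the third dry TAM 111 array at heading, 5 without the first wet TAM 111 array at grain filling, 6 without the third dry TAM 111 array at grain filling and 7 without the first dry TAM 112 array at heading. Without the second dry TAM 112 array at grain filling it was 9. Counts of 10 were left without the third wet TAM 112 or the second wet TAM 111 array at heading, and counts of 11 without the first dry or the third wet TAM 112 array at grain filling. It was 13 without the first wet TAM 112 array at heading, and 15 without the second wet TAM 112 or the first dry TAM 111 array at heading. All 23 probe sets kept their direction without each array.

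**Figure D2:**
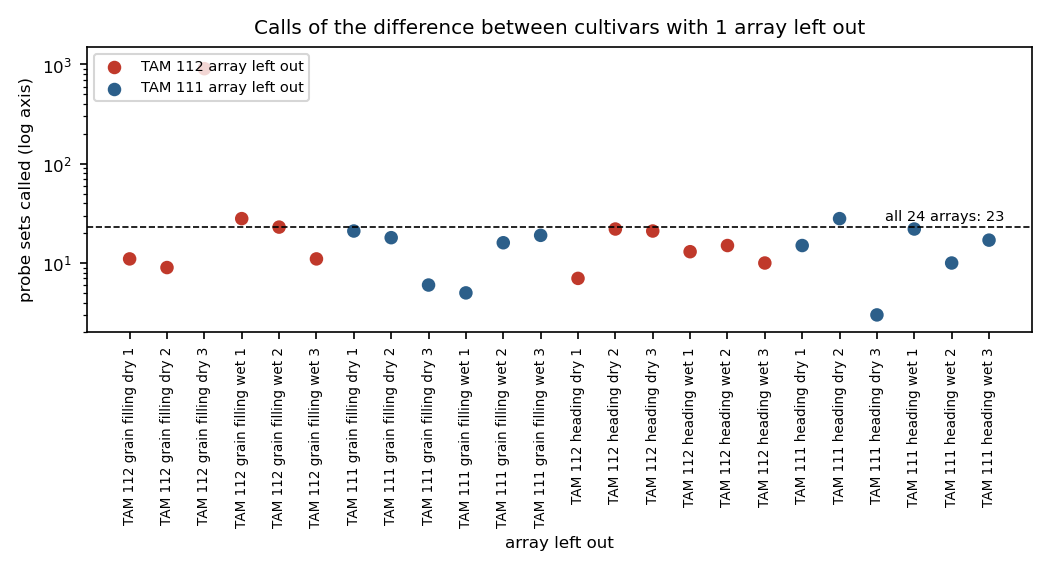
Each point is the number of probe sets called for the difference between cultivars (vertical axis, log scale) when the array named on the horizontal axis is left out, in red for a TAM 112 array and blue for a TAM 111 array. The dashed line marks the 23 calls with all 24 arrays, and the third dry TAM 112 array at grain filling stands apart at 907.

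In addition, 3 TAM 111 arrays numbered 2 lay between the cultivars on the second principal component (14.8% of the variance), at 1.71 for heading wet, 10.5 for heading dry and 4.05 for grain filling wet. The other 9 TAM 111 arrays lay at 45.2 or above and the 12 TAM 112 arrays at -29.5 or below. Without those 3 arrays 19 probe sets were called, 9 of them among the 23. On the log2 scale the actin control's 3′ over 5′ signal, which goes up as RNA degrades, averaged 0.95 ± 1.51 in dry TAM 112 leaves, 0.90 ± 0.75 in wet TAM 112 leaves, 1.98 ± 1.45 in dry TAM 111 leaves and 0.81 ± 1.11 in wet TAM 111 leaves (SD, n = 6 each). In dry leaves at grain filling this ratio was 3.36, 0.18 and -0.22 on the TAM 112 arrays numbered 1, 2 and 3. On the TAM 111 arrays numbered 1, 2 and 3 it was 3.89, 2.95 and -0.26. The dry TAM 112 array with the lowest weight, numbered 3, thus did not have a high ratio. The cultivar by water difference of the ratio was -1.12, and its part in the results was not tested.

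The annotation used here pairs 1 of the 23 called probe sets with a gene, a locus number with no described product, and the other 22 with none. They are therefore named by probe set. By the response of each cultivar they fell into several patterns, and the account below follows these patterns. Under 1 pattern, 5 were higher in dry than in wet leaves in TAM 112, with no call in TAM 111. Over all tested probe sets the share called for water, whatever the other cultivar did, was 11.1% higher and 14.1% lower in TAM 112. In TAM 111 it was 9.17% higher and 9.39% lower. By pattern, of the 37516 tested, 4722 were called in TAM 112 alone and 2196 in TAM 111 alone. A further 4756 were called in both in the same direction and 10 in opposite directions. Another 5 of the 23 were called in opposite directions, and 3 fell in both cultivars but further in TAM 111. In 3 both cultivars moved the same way and TAM 112 moved further, while 2 were lower in dry leaves in TAM 112 with no call in TAM 111. In TAM 111, with no call in TAM 112, 4 were lower and 1 was higher in dry leaves. These patterns rest on calls averaged over stages, so a cultivar with no such call could still be called at a single stage.

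**Figure D3:**
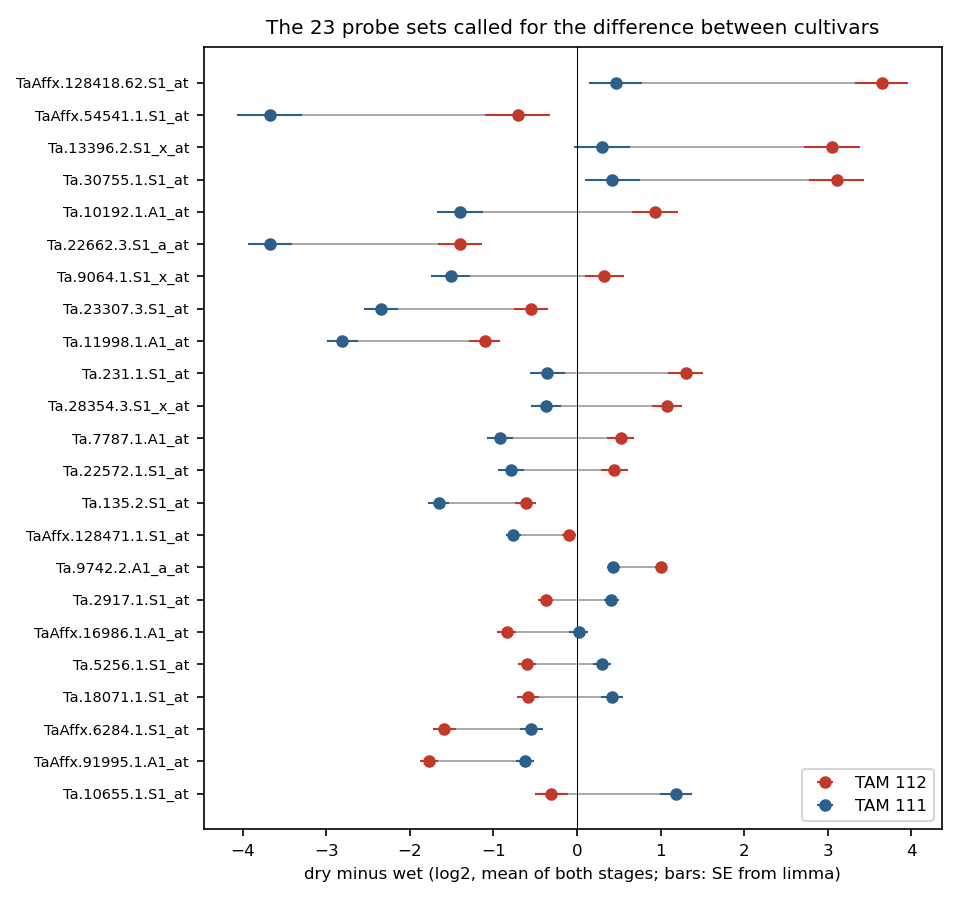
For each of the 23 called probe sets, the dry minus wet change (horizontal axis, log2, mean of both stages) is shown in red for TAM 112 and in blue for TAM 111, with bars for the SE from limma. Probe sets are ordered by the difference between the cultivars, from 3.19 at the top to -1.49 at the bottom.

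The largest positive difference was at TaAffx.128418.62.S1_at, which went up in dry leaves of TAM 112. At grain filling its signals were 815, 1034 and 672 in dry TAM 112 leaves and 17.9, 11.2 and 47.3 in wet TAM 112 leaves. In TAM 111 at grain filling they were 446, 311 and 312 in dry leaves and 125, 71.7 and 84.4 in wet leaves. So dry leaves lay above wet leaves in both cultivars at this stage, by a wider margin in TAM 112. The rise in TAM 111 at grain filling was itself called (1.82 on the log2 scale, adjusted p = 0.00571 by limma). At heading the signals were 323, 124 and 115 in dry TAM 112 leaves and 7.37, 17.4 and 27.0 in wet TAM 112 leaves. In TAM 111 at heading they were 82.4, 26 and 14.1 in dry leaves and 51.0, 71.9 and 99.7 in wet leaves, where the groups overlapped. The log2 change was 3.65 in TAM 112 and 0.46 in TAM 111, a difference of 3.19 (SE 0.45, 9.12-fold, adjusted p = 0.00838 by limma). It was also 2.80 at grain filling and 3.58 at heading, and it was called without each of the 24 arrays.

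Ta.13396.2.S1_x_at showed a similar pattern, mostly at grain filling. Its signals there were 1120, 859 and 284 in dry TAM 112 leaves and 4.16, 5.14 and 22.7 in wet TAM 112 leaves. In TAM 111 at grain filling they were 105, 65.8 and 58.0 in dry leaves and 34.9, 31.8 and 50.5 in wet leaves. Every dry array thus lay above every wet array in both cultivars at this stage, and the dry TAM 112 arrays were the highest of all. At heading the dry TAM 112 arrays read 202, 58.4 and 56.5 and the wet ones 38.1, 50.2 and 20.3, while TAM 111 read 42.8, 75.9 and 58.9 in dry and 94.3, 64.5 and 48.2 in wet leaves. The difference was 2.75 over both stages (SE 0.48, 6.75-fold, adjusted p = 0.0312 by limma), 4.21 at grain filling and 1.3 at heading. It was no longer called without 13 of the 24 arrays left out one at a time. A second probe set of the same cluster number, Ta.13396.2.S1_at, was the first outside the threshold (difference 1.95, adjusted p = 0.0522).

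Ta.30755.1.S1_at was also called higher in dry than in wet leaves in TAM 112 with no call in TAM 111 (0.42 on the log2 scale, adjusted p = 0.441 by limma). At grain filling it read 254, 306 and 202 in dry TAM 112 leaves and 6.42, 2.51 and 2.75 in wet TAM 112 leaves. TAM 111 leaves of that stage read 27.4, 10.7 and 6.00 in dry and 4.43, 3.06 and 5.13 in wet leaves. Every dry array thus lay above every wet array in TAM 111 too at this stage, at low signals. The 6 dry TAM 112 arrays, over both stages, had signals of at least 70.5, and none of the 18 other arrays exceeded 29.1. The probe set passed the filter through the dry TAM 112 arrays alone, so this gap is a description. Its difference was 2.69 (SE 0.47, adjusted p = 0.0312) and lay between 1.76 and 3.59 under the other settings. Leaving out 8 of the 24 arrays, one at a time, ended the call. It was chosen for description after its values were seen, since its mean signal of 53.1 lay under the median of all values.

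Ta.231.1.S1_at, the probe set of the locus LOC542830, had signals of 461, 293 and 619 in dry and 122, 90.1 and 188 in wet TAM 112 leaves at grain filling. TAM 111 leaves then read 159, 171 and 190 in dry and 213, 185 and 176 in wet leaves. TAM 112 changed by 1.3 and TAM 111 by -0.35 on the log2 scale over both stages, a difference of 1.65 (SE 0.29, adjusted p = 0.0318) that was not called without 14 of the 24 arrays. Ta.28354.3.S1_x_at, the last of these 5, had a median of 3029 over the 6 dry and 1439 over the 6 wet TAM 112 arrays, and of 1931 over the 6 dry and 2127 over the 6 wet TAM 111 arrays. Its difference of 1.45 (SE 0.26, adjusted p = 0.0346) was 2.11 at grain filling and 0.79 at heading. At grain filling it changed by 2.43 in TAM 112 and 0.32 in TAM 111, and at heading by -0.27 in TAM 112 (adjusted p = 0.689) and -1.06 in TAM 111 (adjusted p = 0.0197). Its call was lost in 16 of the 24 single omissions.

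Other probe sets fell in dry leaves of TAM 111 and changed less in TAM 112. TaAffx.54541.1.S1_at stayed low in TAM 112 throughout, with at most 48.2 in dry and 37.8 in wet leaves, so its change there rests on low signals. Its signals in dry TAM 111 leaves were 3.05, 21.9 and 9.97 at grain filling and 40.4, 25.8 and 2.46 at heading. In wet TAM 111 leaves they were 286, 194 and 258 at grain filling and 335, 393 and 557 at heading. The change was -0.71 in TAM 112 and -3.68 in TAM 111, a difference of 2.97 (SE 0.55, adjusted p = 0.0394), and it lay between 2.24 and 3.48 under the other settings. The probe set passed the filter through wet TAM 111 leaves alone, and 18 of 24 single omissions ended the call. TAM 112 minus TAM 111 was -0.14 in dry leaves (log2, adjusted p = 0.875 by limma) and -3.11 in wet leaves (adjusted p = 1.17e-05).

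Ta.22662.3.S1_a_at fell in dry leaves of both cultivars. At grain filling it read 72.1, 15.8 and 40.6 in dry and 281, 122 and 185 in wet TAM 112 leaves. In TAM 111 at that stage it read 13.0, 7.31 and 15.9 in dry and 485, 586 and 583 in wet leaves. The wet TAM 111 arrays were the highest of the stage, and the dry TAM 111 arrays lay below all but 1 of the TAM 112 arrays. Over both stages the change was -1.40 in TAM 112 and -3.67 in TAM 111, a difference of 2.27 (SE 0.37, 4.82-fold, adjusted p = 0.0244). It was called without 22 of the 24 arrays.

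Ta.23307.3.S1_at had signals of 205, 230 and 171 in dry and 444, 757 and 296 in wet TAM 112 leaves at grain filling, and of 227, 329 and 294 in dry and 3309, 2030 and 1684 in wet TAM 111 leaves. At heading it read 379, 449 and 401 in dry and 403, 381 and 379 in wet TAM 112 leaves, and 301, 495 and 277 in dry and 883, 1137 and 1654 in wet TAM 111 leaves. Though not called in TAM 112 over both stages, its change there at grain filling was called (-1.17 on the log2 scale, adjusted p = 0.00328 by limma). TAM 112 minus TAM 111 was -0.11 in dry leaves (log2, adjusted p = 0.795) and -1.91 in wet leaves (adjusted p = 1.13e-06). The difference between the responses was 1.80 (SE 0.29, 3.48-fold, adjusted p = 0.0227), 1.79 at grain filling and 1.82 at heading, and 1 of the 24 single omissions ended the call.

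Ta.11998.1.A1_at fell in both cultivars, by 1.11 in TAM 112 and by 2.81 in TAM 111 on the log2 scale. Its 6 dry TAM 112 arrays ran from 176 to 342 with a median of 209, and its 6 wet ones from 366 to 752 with a median of 491. Its dry TAM 111 arrays ran from 68.3 to 201 with a median of 107, and its wet ones from 571 to 1241 with a median of 795. Neither cultivar's dry and wet arrays overlapped. The difference was 1.70 (SE 0.27, 3.25-fold, adjusted p = 0.0207) and was called without each of the 24 arrays. Ta.135.2.S1_at also fell in both, by 0.62 in TAM 112 and by 1.65 in TAM 111, a difference of 1.04 (SE 0.17, adjusted p = 0.0245) that 6 of the 24 single omissions ended.

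Ta.9064.1.S1_x_at fell in TAM 111 alone. Its dry TAM 112 arrays ran from 83.5 to 176 and its wet ones from 76.1 to 133, so these cells overlapped. In TAM 111 the dry arrays ran from 29.0 to 108 and the wet ones from 119 to 264, with no overlap. The difference was 1.84 (SE 0.33, 3.58-fold, adjusted p = 0.0318), and 12 of the 24 single omissions ended the call. TaAffx.128471.1.S1_at fell by 0.76 in TAM 111 and changed by -0.10 in TAM 112, which did not pass the test there, a difference of 0.67 (SE 0.12, adjusted p = 0.0415). That call was lost in 20 of the 24 single omissions.

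The 5 probe sets called in opposite directions were led by Ta.10192.1.A1_at. At grain filling it read 25.5, 26.2 and 25.8 in dry and 23.3, 2.16 and 7.21 in wet TAM 112 leaves, and 85.3, 115 and 87.0 in dry and 406, 367 and 248 in wet TAM 111 leaves. All 12 TAM 111 arrays lay above all 12 TAM 112 arrays, by at least the gap between 38.4 and 85.3. Dry minus wet was 0.93 in TAM 112 and -1.40 in TAM 111 on the log2 scale, a difference of 2.33 (SE 0.39, adjusted p = 0.0245) that lay between 1.57 and 3.51 under the other settings. No TAM 112 array reached the filter level of 69.0, which the probe set passed through TAM 111, so its change in TAM 112 rests on low signals. The call was lost without 4 of the 24 arrays. Ta.7787.1.A1_at changed by 0.52 in TAM 112 and by -0.92 in TAM 111 (difference 1.45, SE 0.23, adjusted p = 0.0207). Ta.22572.1.S1_at changed by 0.45 in TAM 112 and by -0.79 in TAM 111 (difference 1.24, SE 0.23, adjusted p = 0.0394), with the call lost in 17 of the 24 single omissions for this probe set and in 1 for Ta.7787.1.A1_at.

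The other two of these 5 went down in TAM 112 and up in TAM 111. Ta.2917.1.S1_at ran from 739 to 903 in dry and from 846 to 1172 in wet TAM 112 leaves, and from 1003 to 1285 in dry and from 743 to 995 in wet TAM 111 leaves. The dry and wet arrays of TAM 111 did not overlap, and those of TAM 112 did. Its difference was -0.79 (SE 0.13, 1.73-fold, adjusted p = 0.0244), at -0.79 in each stage, and 5 single omissions ended its call. Over both stages Ta.18071.1.S1_at changed by -0.59 in TAM 112 and by 0.42 in TAM 111, a difference of -1.01 (SE 0.19, adjusted p = 0.0419 by limma). At grain filling it changed by -1.14 in TAM 112 (adjusted p = 7.16e-05) and by 0.24 in TAM 111 (adjusted p = 0.449). At heading it changed by -0.04 in TAM 112 (adjusted p = 0.956) and by 0.60 in TAM 111 (adjusted p = 0.0752). Opposite changes were thus not called within either stage. It lost its call without 21 of the 24 arrays.

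**Figure D4:**
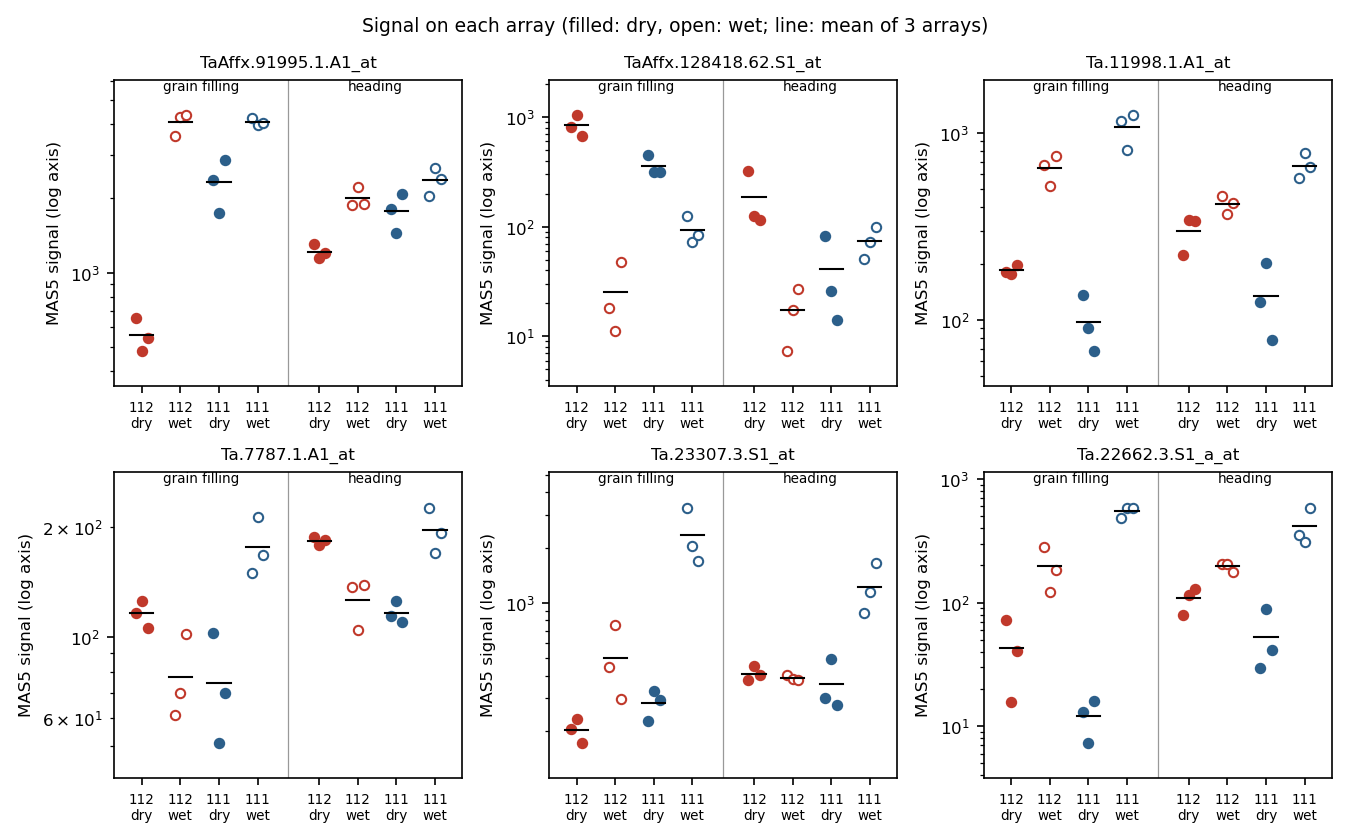
Signals of the 6 called probe sets with the smallest p on each array (vertical axis, MAS5 signal, log scale), with grain filling left and heading right in each panel, TAM 112 in red and TAM 111 in blue, dry leaves as filled and wet leaves as open points, and a line for the mean of 3 arrays. TaAffx.128418.62.S1_at is highest in dry TAM 112 leaves at grain filling, Ta.23307.3.S1_at and Ta.22662.3.S1_a_at are highest in wet TAM 111 leaves, and TaAffx.91995.1.A1_at is lowest in dry TAM 112 leaves at grain filling.

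The smallest p belonged to TaAffx.91995.1.A1_at, which fell in both cultivars and further in TAM 112. At grain filling its signals were 658, 483 and 545 in dry and 3585, 4269 and 4341 in wet TAM 112 leaves. In TAM 111 at that stage they were 2367, 1752 and 2849 in dry and 4244, 3960 and 4048 in wet leaves. Wet leaves of the cultivars overlapped, and all dry TAM 112 arrays lay below all dry TAM 111 arrays. At heading the signals were 1309, 1145 and 1198 in dry and 1877, 2225 and 1904 in wet TAM 112 leaves, and 1819, 1454 and 2085 in dry and 2038, 2657 and 2405 in wet TAM 111 leaves. The change was -1.77 in TAM 112 and -0.62 in TAM 111, a difference of -1.15 (SE 0.16, 2.22-fold, adjusted p = 0.00838), at -2.0 at grain filling and -0.30 at heading. It was called without each of the 24 arrays.

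TaAffx.6284.1.S1_at went the same way, with 320, 333 and 317 in dry and 1959, 2726 and 2321 in wet TAM 112 leaves at grain filling, and 959, 855 and 1309 in dry and 1551, 2132 and 1904 in wet TAM 111 leaves. Its difference over both stages was -1.04 (SE 0.19, adjusted p = 0.0415), at -1.95 at grain filling and -0.13 at heading (unadjusted p = 0.638), and 17 of the 24 single omissions ended the call. Ta.5256.1.S1_at and TaAffx.16986.1.A1_at fell over both stages in TAM 112 with no call in TAM 111, by 0.60 and by 0.84 on the log2 scale. At grain filling Ta.5256.1.S1_at read 303, 342 and 480 in dry and 1026, 1007 and 915 in wet TAM 112 leaves, and 1069, 1004 and 1111 in dry and 1170, 1058 and 1022 in wet TAM 111 leaves. At heading it did not fall in TAM 112, with 911, 1147 and 1364 in dry and 907, 893 and 1193 in wet leaves. In TAM 111 at heading it rose by 0.63 (adjusted p = 0.0217), with 1551, 1546 and 1793 in dry and 1084, 949 and 1119.7 in wet leaves. Its difference was -0.90 (SE 0.16, adjusted p = 0.0312), at -1.36 at grain filling and -0.44 at heading, and the call was lost in 10 single omissions. That of TaAffx.16986.1.A1_at was -0.87 (SE 0.16, adjusted p = 0.0394), at -1.38 at grain filling and -0.35 at heading, and its call was lost in 18. Ta.9742.2.A1_a_at rose in both cultivars, by 1.0 in TAM 112 and 0.44 in TAM 111, the smallest called difference at 0.56 (SE 0.10, 1.48-fold, adjusted p = 0.0394), which 17 of the 24 single omissions left uncalled.

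Ta.10655.1.S1_at was the 1 probe set that rose in TAM 111 alone. At grain filling it read 86.1, 40.6 and 75.8 in dry and 153, 91.9 and 86.7 in wet TAM 112 leaves. Signals in TAM 111 at that stage were 136, 120 and 111 in dry and 33.5, 25.5 and 18 in wet leaves. Its difference was -1.49 (SE 0.27, 2.81-fold, adjusted p = 0.0394), at -2.50 at grain filling and -0.49 at heading. It lost its call in 20 of the 24 single omissions.

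The water level at which the cultivars differed was not the same for all. TAM 112 differed from TAM 111 in dry leaves but not beyond the threshold in wet leaves at 8 of the 23, and in wet but not beyond the threshold in dry leaves at 5. Over all tested probe sets the cultivars differed in dry leaves at 11.1% and in wet leaves at 5.86%. At the other 10 of the 23 they differed at both levels, and in 9 of those the cultivar with the higher signal changed between dry and wet leaves. Ta.10192.1.A1_at was the exception. The 6 dry and 6 wet arrays did not overlap at 7 of the 23 in TAM 112 (4.90% of all tested) and at 11 in TAM 111 (5.84%), and since the difference itself selected these 23, nothing is read from those counts.

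The difference was also tested within each stage. At grain filling alone the difference between cultivars was called at 13 probe sets (0.0347%; 5216 at an unadjusted p below 0.05, 13.9%), 8 of them among the 23. That count was 2438 without the third dry TAM 112 array, 2 without the second and 3 without the first, all at grain filling, and 1552 with array weights. It was 3 without the third and 26 without the first dry TAM 111 array at grain filling, 76 without the first wet TAM 112 array at grain filling, 25 without the first dry TAM 112 array at heading, and 4 in a fit of the 12 grain filling arrays. At heading alone it was called at 1 (0.00267%; 1923 at an unadjusted p below 0.05, 5.13%), which was not among the 23. The grain filling minus heading difference of the interaction was called at 0 probe sets by limma (2653 at an unadjusted p below 0.05, 7.07%), so no probe set was shown to interact differently at the 2 stages. Without the third dry TAM 112 array at grain filling that count was 11. Across tested probe sets the grain filling and heading values correlated with r = 0.11 and had the same sign at 55.5% (they share no arrays). All 23 had the same sign at both stages, a property that averaging favours, and 17 were larger in size at grain filling.

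The call at heading was the dim probe set Ta.141.1.S1_x_at of GA20ox1d, a gibberellin 20-oxidase, an enzyme of the late steps of gibberellin synthesis. Its heading signals were 13.5, 8.84 and 25.7 in dry and 128, 103 and 103 in wet TAM 112 leaves. TAM 111 leaves at heading read 60.2, 109 and 74.4 in dry and 23, 22 and 15.2 in wet leaves. The groups did not overlap within either cultivar, and the order of dry and wet was opposite between them. The probe set passed the filter through wet TAM 112 and dry TAM 111 leaves at heading alone, and the test of this difference selected it. These gaps are therefore a description. The difference was -3.71 at heading (SE 0.53, adjusted p = 0.0221) and 0.04 at grain filling (SE 0.53), where no array exceeded 20.2. The other probe set of the same gene, Ta.141.1.S1_at, gave 1.55 at heading (SE 0.81, adjusted p = 0.978), in the other direction, so the probe sets of GA20ox1d disagree. The call was lost with a pseudocount of 1, with none, under the stricter filter, with the replicate block and without 10 of the 24 arrays left out one at a time.

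None of the 78 named genes that could be tested, of 102 with a name in the annotation, had a called difference over both stages by any of their 133 tested probe sets. The smallest adjusted p was 0.0744, at the same GA20ox1d probe set, with a difference of -1.83. By the brightest probe set, 14 of the 78 had an unadjusted p below 0.05 (17.9%, beside 11.8% of all tested probe sets). The latter include dimmer probe sets, and under a stricter signal filter 2967 of 18122 had such a p. Over all tested probe sets of the named genes it was 20 of 133. The median difference of the 78 was -0.01, with 37 positive and 41 negative values. Those at either end are given next as values that did not pass the test.

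**Figure D5:**
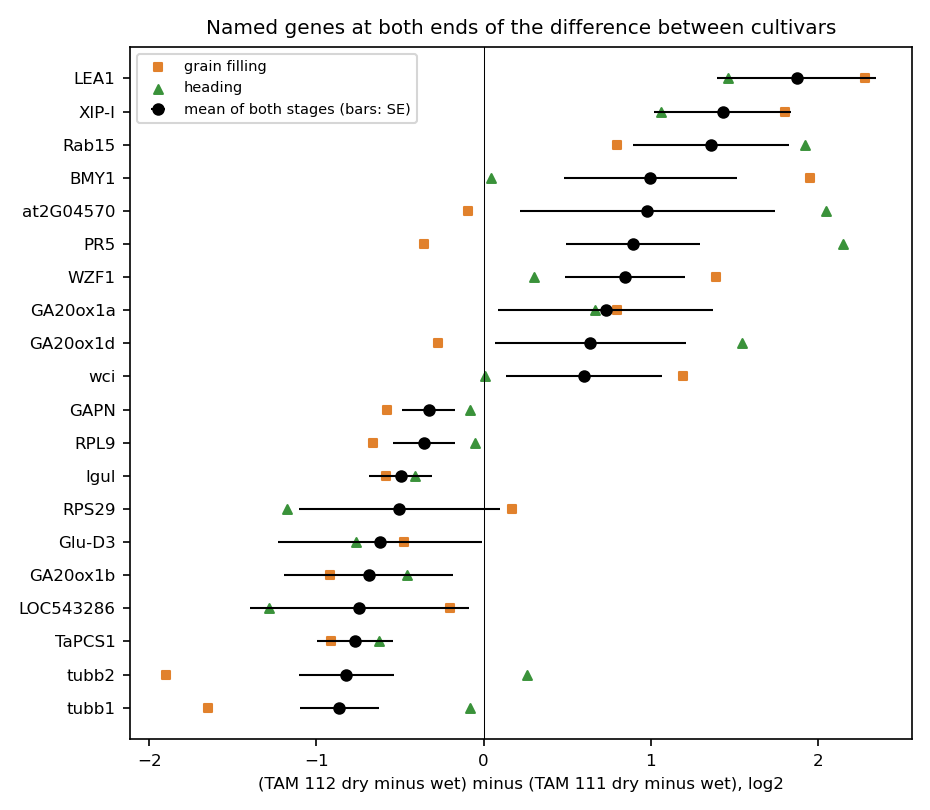
For the 10 named genes with the largest positive and the 10 with the largest negative difference, the cultivar by water difference (horizontal axis, log2) is shown averaged over stages (black, with SE), at grain filling (orange squares) and at heading (green triangles). Values run from 1.87 for LEA1 to -0.86 for tubb1, none of them called, also where the points of the stages lie far apart, as for tubb1 (-1.65 at grain filling and -0.08 at heading).

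LEA1 and Rab15, a late embryogenesis abundant protein and a dehydrin, stood near the top. Of the 5 genes of this group 2 could be tested, and both rose in dry leaves of both cultivars. LEA1 at grain filling read 4091, 3229 and 2032 in dry and 47.4, 18.6 and 6.95 in wet TAM 112 leaves, and 1668, 1618 and 1029 in dry and 40.8, 75.5 and 76.2 in wet TAM 111 leaves. At heading it read 562, 138 and 137 in dry and 81.0, 46.6 and 47.7 in wet TAM 112 leaves, and 126, 35.0 and 74.4 in dry and 42.2, 67.7 and 56.5 in wet TAM 111 leaves. Dry leaves were above wet leaves in both cultivars at grain filling and in TAM 112 at heading, with overlap in TAM 111 at heading. The change was 4.16 (SE 0.34) in TAM 112 and 2.29 (SE 0.34) in TAM 111, a difference of 1.87 (SE 0.48, adjusted p = 0.168). Rab15 changed by 3.07 in TAM 112 and by 1.71 in TAM 111, a difference of 1.36 (SE 0.47, adjusted p = 0.267). Without the third dry TAM 112 array at grain filling, LEA1 had a difference of 2.01 and an adjusted p of 0.0351.

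XIP-I, an inhibitor of fungal xylanases, had a difference of 1.43 (SE 0.41, adjusted p = 0.208). Its 6 dry TAM 112 arrays ran from 208 to 952 with a median of 832, and its wet ones from 47.6 to 242 with a median of 110. Its dry TAM 111 arrays ran from 220 to 911 with a median of 599, and its wet ones from 224 to 583 with a median of 313. It rose in TAM 112 (2.15, adjusted p = 8.16e-06) and did not pass the test in TAM 111 (0.72, adjusted p = 0.0901), and that contrast of calls was not backed by the test of the difference. PR5, a thaumatin-like pathogenesis-related protein, fell by 1.92 in TAM 112 and by 2.82 in TAM 111 (difference 0.89, SE 0.40, adjusted p = 0.391). Its difference was -0.36 at grain filling and 2.15 at heading. Of 11 defence genes 6 could be tested, and none was called. Of these 6, 5 had a positive difference, where 55.9% of all tested probe sets were negative. Their median was 0.51, beside -0.05 over all tested probe sets.

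Of 6 tested genes for tubulins, the subunits of microtubules, none was called and 5 had a negative difference, where 55.9% of all tested probe sets were negative. Their median was -0.26, beside a lower quartile of -0.26 over all tested probe sets, and 3 had an unadjusted p below 0.05 (11.8% of all tested). Only tubb1 and tubb2 were among the 10 lowest named genes, while tubb3 (-0.24), Tubb4 (-0.27), Tubb5 (-0.18) and TUBA (0.00) were not. For tubb1, a beta-tubulin, the grain filling signals were 1797, 1779 and 2228 in dry and 1667, 2641 and 3061 in wet TAM 112 leaves, and 4466, 4040 and 5563 in dry and 1434, 1985 and 2130 in wet TAM 111 leaves. Dry TAM 111 leaves were thus above every other array of that stage. Over both stages tubb1 rose by 0.98 in TAM 111 (adjusted p = 0.000171) and changed by 0.12 in TAM 112 (adjusted p = 0.663). The difference was -0.86 (SE 0.24, adjusted p = 0.197), at -1.65 at grain filling and -0.08 at heading. For tubb2 it was -0.82 (SE 0.28, adjusted p = 0.270), at -1.90 at grain filling and 0.26 at heading. The adjusted p at grain filling alone was 0.0632 for tubb1 and 0.0668 for tubb2.

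TaPCS1, which makes the metal-binding phytochelatins, ran from 446 to 745 in dry TAM 112 leaves with a median of 524, and from 335 to 562 in wet ones with a median of 487. In TAM 111 it ran from 391 to 1047 in dry leaves with a median of 572, and from 213 to 388 in wet leaves with a median of 308. No dry TAM 111 array lay below a wet one, while the cells of TAM 112 overlapped. It rose by 1.0 in TAM 111 and changed by 0.23 in TAM 112, a difference of -0.77 (SE 0.23, adjusted p = 0.213). The glyoxalase gene lgul changed by -0.02 in TAM 112 and by 0.47 in TAM 111, a difference of -0.50 (SE 0.19, adjusted p = 0.312).

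All 7 photosynthesis genes were tested, and their differences lay between -0.30 and 0.10 with a median of -0.02. The lowest was FBP, a fructose-bisphosphatase, which fell by 0.45 in TAM 112 (adjusted p = 1.7e-05) and changed by -0.16 in TAM 111 (adjusted p = 0.0953), a difference of -0.30 (SE 0.09, adjusted p = 0.237). Pgk-1, a phosphoglycerate kinase, had a difference of -0.31 (SE 0.15, adjusted p = 0.414), and GAPN, a non-phosphorylating glyceraldehyde-phosphate dehydrogenase, one of -0.33 (SE 0.16, adjusted p = 0.428). The zinc finger gene WZF1 had a difference of 0.85 (SE 0.36, adjusted p = 0.367). BMY1, a beta-amylase that breaks down starch, had one of 1.0 (SE 0.52, adjusted p = 0.461). The other 9 genes in the plot of named genes were at2G04570 (0.98), GA20ox1a (0.73), GA20ox1d by its main probe set (0.64), wci (0.60), the ribosomal protein genes RPL9 (-0.36) and RPS29 (-0.50), the glutenin gene Glu-D3 (-0.62), GA20ox1b (-0.69) and LOC543286 (-0.74). Their adjusted p-values ran from 0.461 to 0.777.

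Without the third dry TAM 112 array at grain filling, 8 of the named genes passed the test. By the brightest probe set 7 of 78 did (8.97%, beside 2.42% of all tested probe sets, dimmer ones included). These were LEA1, WZF1 (1.13, adjusted p = 0.0378), FBP (-0.36, adjusted p = 0.0151), GAPN (-0.47, adjusted p = 0.0211), Pgk-1 (-0.44, adjusted p = 0.0261), Tubb4 (-0.36, adjusted p = 0.0439) and tubb1 (-0.92, adjusted p = 0.0494). The eighth was GA20ox1d by its dim probe set (-1.91, adjusted p = 0.0173). On that array Pgk-1 read 17373 where the first and second dry TAM 112 arrays at grain filling read 9969 and 10337, and WZF1 read 415 where they read 1351 and 1357.

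The remaining lists gave no called member, in either direction. The 5 tested genes of fructan, starch and sucrose metabolism had a median difference of 0.06, the 8 of translation -0.07, the 5 histone and HMG genes -0.06 and the 3 protein protection genes -0.06. The 6 genes of redox and detoxification had a median of -0.15, the 4 of glycolysis and sugar phosphates -0.17 and the 3 of methyl group metabolism -0.04. The 13 other named genes had a median of 0.02. The lists of grain protein genes and of pollen and anther genes, named for organs other than the leaf, had 5 and 2 members that passed the filter. Their medians were -0.02 and 0.13. None had a call for water, beside 25.3% of all tested probe sets in TAM 112 and 18.6% in TAM 111. With so few members nothing is read from this. Some of these members had high signals in these leaves, with a mean of 6855 for ALP and of 26191 for Profilin-1, so the lists do not mark other organs here. The 3 gibberellin 20-oxidases had a median of 0.64 by their brightest probe sets.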

How the data were processed

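RNA of flag leaves was measured with 1 sample per Affymetrix wheat array. The intensity values analysed are the authors' MAS5 signals as deposited, per the submitters' processing notes (the MAS5 version is not given in the sources used here). Trimming 2% from each end left every array with a mean of 500.1. No column was unmapped (0), and 0 pairs of columns were identical. AFFX controls (111 of 61290 probe sets) were set aside. A probe set was tested if at least 3 arrays exceeded 69.0, which is the overall median, and 37516 (61.3%) met this. Each signal plus 11.7 (the 20th percentile) was then log2-transformed.

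One mean per group was fitted to the 24 arrays with limma 3.58.1 in R 4.3.3 and moderated with a variance trend, which left 16 residual degrees of freedom plus 5.53 from the prior. P-values were adjusted by Benjamini-Hochberg over all tested probe sets. The fit was tested on simulated data. The number of arrays limits the precision, and the labels and files record no batch.

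Genes were named from GEO's platform annotation, which gives a gene for 1273 probe sets, and updated by gene ID through RefSeq (770 of 771 genes found). The rule took every named gene with a called probe set (there was none), the 10 named genes at each end by their brightest tested probe set, and, of probe sets with a locus number or no gene and a mean above 69.0, the 8 largest called differences in each direction (only 7 were negative). The other 8 called probe sets, Ta.231.1.S1_at of LOC542830 among them, FBP, Pgk-1, Tubb4 and the extra GA20ox1d probe set were added after their values were seen. The rule, the 15 gene lists and the comparison were chosen with earlier results of these data known. Alternatives changed the pseudocount, scaling, filter, weights, variance model, replicate block, stage and arrays left out.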

Additional observations from a re-analysis of the deposited data

Results flagged for a closer look

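All 23 probe sets called for the difference between cultivars are listed here because the test of that difference itself passed the threshold. Those with a positive value (TAM 112 minus TAM 111, log2) were TaAffx.128418.62.S1_at (3.19), TaAffx.54541.1.S1_at (2.97), Ta.13396.2.S1_x_at (2.75), Ta.30755.1.S1_at (2.69), Ta.10192.1.A1_at (2.33), Ta.22662.3.S1_a_at (2.27), Ta.9064.1.S1_x_at (1.84), Ta.23307.3.S1_at (1.80) and Ta.11998.1.A1_at (1.70). Further positive values were those of Ta.231.1.S1_at (1.65), Ta.28354.3.S1_x_at (1.45), Ta.7787.1.A1_at (1.45), Ta.22572.1.S1_at (1.24), Ta.135.2.S1_at (1.04), TaAffx.128471.1.S1_at (0.67) and Ta.9742.2.A1_a_at (0.56). Negative values were those of Ta.10655.1.S1_at (-1.49), TaAffx.91995.1.A1_at (-1.15), TaAffx.6284.1.S1_at (-1.04), Ta.18071.1.S1_at (-1.01), Ta.5256.1.S1_at (-0.90), TaAffx.16986.1.A1_at (-0.87) and Ta.2917.1.S1_at (-0.79). At heading alone, GA20ox1d by Ta.141.1.S1_x_at had a called difference of -3.71. This dim probe set passed the filter through wet TAM 112 and dry TAM 111 leaves at heading alone. The other probe set of the gene went in the other direction.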

How the results depend on the processing

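The 23 called probe sets kept their direction under every alternative that tested them. The counts of calls, by limma, moved more. For the difference averaged over stages, the count was 39 with a pseudocount 4 times as large, 14 with a stricter filter that tested 18122 probe sets, 292 with array weights and 15 without the three-way term. It was 339 without the third dry TAM 112 array at grain filling and the 3 intermediate TAM 111 arrays, and 181 without the 4 dry arrays numbered 3, both settings chosen after seeing the data. Using the grain filling arrays only it was 13, and using the heading arrays only 1. At grain filling the counts under these settings were 37 with the larger pseudocount, 22 after quantile normalization, 1552 with array weights, 8 without a variance trend, 24 without the 3 intermediate TAM 111 arrays, 20 without the 4 TAM 111 arrays numbered 2, 1481 without the 4 arrays together, 862 without the dry arrays numbered 3 and 4 in a fit of the 12 arrays of that stage. At heading the count was 2 with the larger pseudocount and 0 with a pseudocount of 1, with none, with the stricter filter, under each of the 4 joint omissions of arrays and in the 12-array fit. The difference between stages gave 1 call without a variance trend and 1 without the 4 arrays together. Dry against wet in TAM 111 gave 4371 calls without the 4 TAM 111 arrays numbered 2. The cause of these shifts was not tested beyond the omissions themselves.

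Leaving out 1 array at a time gave 3 to 907 calls for the averaged difference, 2 to 2438 at grain filling, 0 to 2 at heading and 0 to 11 for the difference between stages. All the highest counts but that at heading came without the third dry TAM 112 array at grain filling. At grain filling, 76 was the highest count among the other omissions.

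Of the 20 named genes at the ends, tubb2 reversed at heading alone (0.26). At grain filling alone at2G04570 (-0.0916), PR5 (-0.36), GA20ox1d (-0.27) and RPS29 (0.17) reversed. Under array weights tubb1 was called (adjusted p = 0.0477). The change was larger in TAM 112 at 57.8% to 69.7% of water-responsive probe sets over all settings, a measure chosen after seeing the data.

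The labels do not say that replicate numbers pair the samples, and not every same-numbered pair correlated above 0.1. Deviations of same-numbered arrays correlated between -0.09 and 0.22 (median 0.02, 7 of 84 pairs above 0.1, beside 2 of 168 pairs of unlike number), and 17 of 24 arrays were closest to one of their own number, a hint from the data and not from the design. With the replicate block the counts were 42 for the averaged difference, with all 23 among them, 88 at grain filling and 0 at heading.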

Other observations

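Of the 13 probe sets called at grain filling alone, 5 were outside the 23 and none of these had a gene in the annotation. Ta.9172.1.S1_at had the largest difference among them, at -4.17 at grain filling (SE 0.69, adjusted p = 0.0245 by limma) and -0.69 at heading. TaAffx.80594.1.S1_at gave -2.05 at grain filling (adjusted p = 0.0156) and -0.06 at heading, and TaAffx.113323.1.S1_at -0.80 at grain filling (adjusted p = 0.0368) and 0.00 at heading. Positive values came from Ta.13396.2.S1_at, with 2.90 at grain filling (adjusted p = 0.0498) and 0.99 at heading, and from TaAffx.12277.1.S1_at, with 1.29 at grain filling (adjusted p = 0.0476) and 0.19 at heading. The difference between the stages was not called for any of them.

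The 10 probe sets called for water in opposite directions in the cultivars included 5 of the 23. Among the other 5, TaAffx.122371.1.S1_x_at had the largest difference, at -2.93 (adjusted p = 0.0640), with a mean signal of 38.7.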
